A study of Rattus norvegicus with 12 samples.

Results

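Messenger RNA of the genes that make, salvage and break down coenzyme A was followed in the renal cortex of rats given tert-butyl alcohol (TBA), a solvent that is also formed in the body from the fuel ethers MTBE and ETBE. The genes were taken from a list of 10 symbols: Vnn1, Pank1, Pank2, Pank3, Ppcs, Ppcdc, Coasy, Nudt7, Nudt8 and Nudt19. Every non-control probe whose RefSeq transcript belongs to 1 of these symbols was used. That gave 15 of the 61657 probes on the array, for 8 of the 10 genes. Nudt7 and Nudt8 were not matched to a probe and were not analysed here.

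The study used 12 male Sprague-Dawley rats of the Crl:CD(SD) stock, which were 5 weeks old when bought and were kept on a basal diet with tap water. Controls were given water (vehicle) for 4 weeks and treated rats were given TBA at 1000 mg/kg/day for the same time. All were bled 24 h after the last dose, either under a mixture of carbon dioxide and oxygen (CO2-O2) or under isoflurane. This makes 4 groups of 3 rats, with 1 one-colour array per rat, and the submitters call the 3 rats of a group biological replicates. Between 61.6% and 71.0% of probes were well above background on an array, and arrays of the same group correlated at 0.989 to 0.994. All 12 markers of the S1 and S2 segments of the proximal tubule, the main cell type of the cortex, were well above background on all 12 arrays.

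Coenzyme A carries acyl groups in fatty acid oxidation, in the citric acid cycle and in lipid synthesis. It is built from pantothenate (vitamin B5): pantothenate kinases phosphorylate the vitamin and set the pace, Ppcs and Ppcdc add and trim a cysteine, and Coasy completes the molecule. Vnn1, a pantetheinase anchored to the outer face of the cell membrane, splits pantetheine into pantothenate, which can be used again, and cysteamine. Nudix hydrolases such as Nudt19 cleave the finished molecule, mostly in peroxisomes, and proximal tubule cells are rich in peroxisomes and burn fatty acids.

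Values are the log2 of the background-subtracted probe signal relative to the 75th percentile of its array, so 0 is the level of that percentile and 1 unit is a doubling. Differences are TBA minus vehicle on this log2 scale, with the standard error (SE) from limma. The Benjamini-Hochberg adjustment of p ran over all 29603 features tested, and 0.05 was the threshold. Since the tissue was bulk cortex, fewer cells of a type and less RNA per cell cannot be told apart.

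Vnn1 rose with TBA when the effect was averaged over both anesthetics, and it was the only gene of the 8 to pass the threshold in any comparison. Its log2 signal in the vehicle rats killed under CO2-O2 was 3.82, 4.33 and 4.27 (mean 4.14 ± 0.28, SD, n = 3). In the TBA rats killed under CO2-O2 it was 4.71, 4.81 and 4.95 (4.82 ± 0.12, SD, n = 3). Every treated rat lay above every control.

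Under isoflurane the vehicle rats had Vnn1 values of 4.15, 3.51 and 3.50 (3.72 ± 0.37, SD, n = 3). The TBA rats had 4.46, 4.87 and 5.08 (4.80 ± 0.31, SD, n = 3). Again the groups did not overlap, and the lowest of all 6 treated rats (4.46) was above the highest of all 6 controls (4.33). Among all features tested, 1.5% had all 6 TBA arrays above all 6 vehicle arrays.

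The Vnn1 difference was 0.68 ± 0.21 (SE, n = 3 per group) under CO2-O2, with an adjusted p of 0.216 in limma. Under isoflurane it was 1.08 ± 0.21 (SE, n = 3 per group), with an adjusted p of 0.0667 in limma. Averaged over both anesthetics it was 0.88 ± 0.15, or 1.84-fold, with a 95% interval of 0.54 to 1.22 and an adjusted p of 0.0292 in limma. In that averaged comparison 1.88% of all features passed (1.4% higher), beside 1 of these 8 genes. The difference between the anesthetics in the size of the effect was 0.40 ± 0.30, with an adjusted p of 0.625 in limma, and its 95% interval ran from -0.28 to 1.08.

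The call on Vnn1 lay close to the threshold. It was kept in 4 of 12 fits that left out 1 array each. It was lost without vehicle CO2-O2 rat 1, 2 or 3, TBA CO2-O2 rat 1 or 2, vehicle isoflurane rat 2 or 3, or TBA isoflurane rat 2. There the adjusted p in limma reached 0.0769. Over all 12 fits the difference stayed between 0.80 and 0.99. The arrays lay on 3 slides, and all TBA isoflurane arrays were on a slide of their own, so slide and treatment cannot be told apart under isoflurane. Slide 1 held the vehicle CO2-O2 arrays and 1 TBA CO2-O2 array, and within it Vnn1 was 0.80 higher in the treated rat than in the mean of the 3 controls. The vehicle isoflurane arrays were all on slide 2, which was scanned on another day. Within vehicle rats, gas, slide and scan day therefore cannot be told apart. With scan day as a term the averaged difference was 0.94 and the adjusted p in limma was 0.0892. Only the TBA CO2-O2 group spanned both scan days, so the CO2-O2 part of that fit is again the 0.80 of slide 1. Its isoflurane part is unchanged at 1.08.

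**Figure D1:**
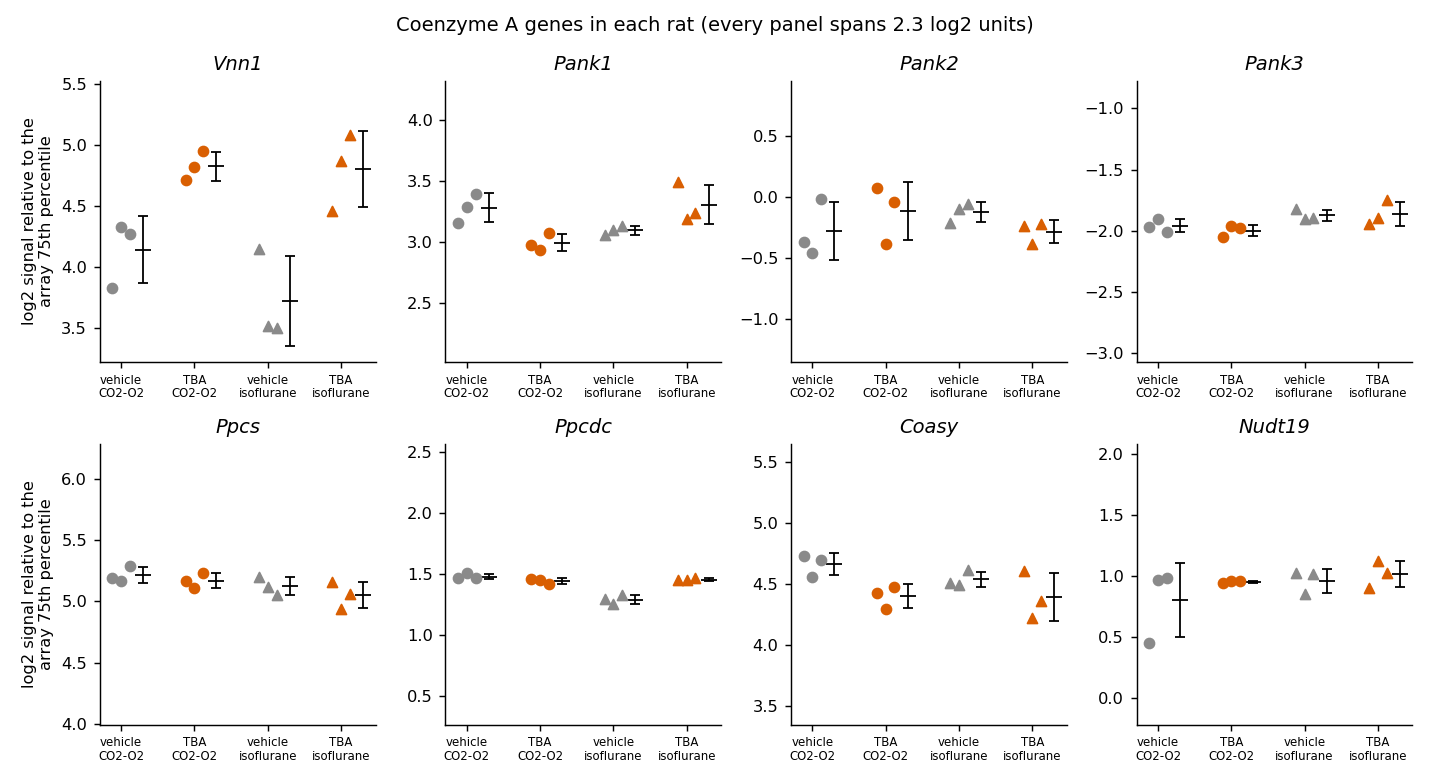
Log2 signal of each coenzyme A gene relative to the array's 75th percentile (vertical axis) in the 4 groups (horizontal axis), 1 point per rat, with circles for CO2-O2, triangles for isoflurane, grey for vehicle and orange for TBA; black marks show the mean and SD of 3 rats. Vnn1 lies at 4.46 to 5.08 in treated rats and 3.50 to 4.33 in controls, while the other genes move within narrower bands.

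Markers of the proximal tubule moved in the same direction. The summed signal of the 11 S1 and S2 markers measured on every array, each as a multiple of the array's 75th percentile, was 980 to 1081 in vehicle CO2-O2 rats and 1110 to 1235 in TBA CO2-O2 rats. Under isoflurane it was 1018 to 1126 in vehicle rats and 1240 to 1340 in TBA rats. None of the 12 markers was at background. In the averaged comparison 3 of the 12 rose, beside 1.4% of all features. They were Slc5a12, a lactate carrier (0.68 ± 0.08, adjusted p in limma 0.0099), Slc2a2, a glucose carrier (0.56 ± 0.09, 0.0232) and Slc22a8, an organic anion carrier (0.38 ± 0.06, 0.0292).

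The mean of those 11 markers was 0.31 higher with TBA under CO2-O2 and 0.21 higher under isoflurane, beside 0.68 and 1.08 for Vnn1. Vnn1 less that mean was 0.37 higher under CO2-O2 and 0.87 higher under isoflurane, and the treated and control rats did not overlap under either gas. Across the gases they did: TBA isoflurane rat 1 (-1.34) was below vehicle CO2-O2 rats 2 and 3 (-1.19 and -1.18). This within-array measure was chosen after the values had been seen. The summed signal of 9 markers of the S3 segment was 706.8 to 787.5 in vehicle and 603.7 to 744.2 in TBA rats under CO2-O2, where 4 of 9 were higher with TBA (median -0.04). Under isoflurane it was 535.3 to 638.5 in vehicle and 635.9 to 908.7 in TBA rats, and 9 of 9 were higher with TBA (median 0.32, beside 53.6% of all features higher), although 0 passed in limma. The part of these shifts in the Vnn1 result was not tested.

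The order of the 4 groups by mean Vnn1 signal was TBA under CO2-O2 (4.82), TBA under isoflurane (4.80), vehicle under CO2-O2 (4.14) and vehicle under isoflurane (3.72). The first pair differed by -0.02 ± 0.21 (isoflurane minus CO2-O2) and could not be separated. The controls differed by -0.42 ± 0.21, with an adjusted p of 0.325 in limma, and their values overlapped.

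The pantothenate kinases catalyse the first and rate-limiting step and are inhibited by coenzyme A and its esters. Pank1 (the kinase whose RNA is abundant in liver and kidney) was 3.16, 3.29 and 3.40 in vehicle CO2-O2 rats and 2.98, 2.94 and 3.07 in TBA CO2-O2 rats. Under isoflurane it was 3.06, 3.10 and 3.14 in vehicle rats and 3.49, 3.19 and 3.24 in TBA rats. Treated rats were therefore all below their controls under CO2-O2 and all above them under isoflurane.

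The Pank1 difference was -0.29 ± 0.09 under CO2-O2 (adjusted p 0.218 in limma) and 0.21 ± 0.09 under isoflurane (adjusted p 0.269 in limma). The averaged difference was -0.04 ± 0.06. The difference between the 2 TBA effects was 0.50 ± 0.13, with an adjusted p of 0.244 in limma, so it did not pass. Of the 29603 features 0 (0%) passed that interaction test in limma, while 12.1% had an unadjusted p under 0.05, Pank1 and Ppcdc among them.

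Pank1 had 3 probes, and for TBA minus vehicle under each gas all of them had the same signs as the gene's own values. Under CO2-O2 the other probes differed by -0.28 ± 0.10 and -0.25 ± 0.09. Under isoflurane they differed by 0.28 ± 0.10 and 0.12 ± 0.09. The probes share the same RNA samples and are not independent of each other. With normexp background correction the isoflurane difference was 0.05 and the difference between the TBA effects 0.22.

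Markers of fibroblasts moved with the same signs as Pank1. Of 6 listed, 5 were tested. With TBA 5 of 5 were lower under CO2-O2 (median -0.21) and 5 of 5 higher under isoflurane (median 0.25), with 0 calls in limma. Over all features 53.6% were higher with TBA under each gas. Their summed signal was 40.3 to 48.5 in vehicle and 38.3 to 41.2 in TBA rats under CO2-O2, and 25.3 to 40.1 in vehicle and 36.4 to 38.7 in TBA rats under isoflurane. The difference between the TBA effects had a median of 0.47 over these 5 markers and of 0.53 over the 9 S3 markers (8 of 9 above 0). These lists were picked after their values were seen. Medians were also above 0 for red blood cell (0.28), leukocyte (0.13), thick ascending limb (0.10) and principal cell (0.03) markers. They were below 0 for distal convoluted tubule (-0.30), intercalated cell (-0.18), adipocyte (-0.13), endothelium (-0.12), podocyte (-0.11) and S1-S2 (-0.01) markers. Over all features 50.9% were above 0. The part of any cell type in the Pank1 values was not tested.

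**Figure D2:**
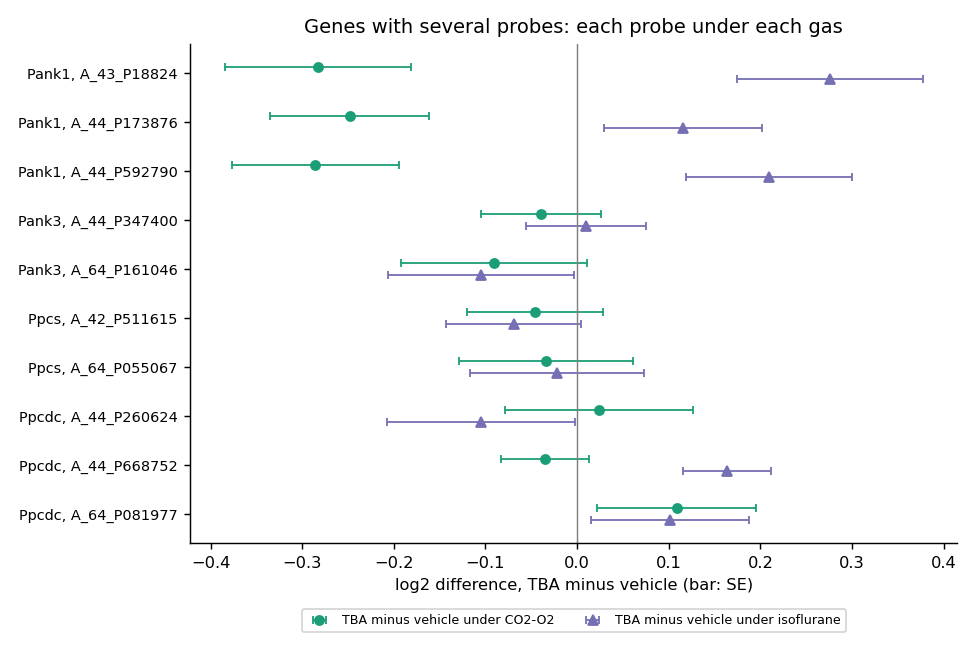
Log2 difference between TBA and vehicle rats (horizontal axis, with its SE) for each kept probe of the genes with more than 1 probe (vertical axis), with circles for CO2-O2 and triangles for isoflurane. The 3 Pank1 probes lie below 0 under CO2-O2 and above 0 under isoflurane, and the 3 Ppcdc probes do not share a pattern.

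Pank2, whose product works at the mitochondrion, had values of -0.37, -0.46 and -0.02 in vehicle CO2-O2 rats and 0.07, -0.39 and -0.04 in TBA CO2-O2 rats. In vehicle isoflurane rats they were -0.22, -0.10 and -0.06, and in TBA isoflurane rats -0.24, -0.39 and -0.22. The groups overlapped under CO2-O2, and under isoflurane the TBA rats were all lower, although the closest pair both read -0.22 after rounding. The differences were 0.16 ± 0.14 under CO2-O2 and -0.16 ± 0.14 under isoflurane, and neither passed (adjusted p in limma 0.634 and 0.592).

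Pank3, a cytosolic kinase, ranged from -2.05 to -1.75 over all 12 rats. Its difference was -0.04 ± 0.07 under CO2-O2 and 0.01 ± 0.07 under isoflurane. The 95% interval of the averaged difference was -0.12 to 0.09. The second probe gave -0.09 ± 0.10 and -0.10 ± 0.10.

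The later steps of synthesis had 0 calls in limma. Ppcs, which joins cysteine to phosphopantothenate, ranged from 4.94 to 5.29 over all rats, and its averaged difference was -0.06 ± 0.05 (95% interval -0.17 to 0.06). Its second probe gave -0.03 ± 0.07. Treated and control rats overlapped under each gas.

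Ppcdc removes the carboxyl group in the next step. Its brightest probe read 1.47, 1.51 and 1.47 in vehicle CO2-O2 rats and 1.46, 1.45 and 1.42 in TBA CO2-O2 rats. Under isoflurane the vehicle rats read 1.30, 1.25 and 1.33 and the TBA rats 1.45, 1.45 and 1.47. The vehicle isoflurane rats were thus the low group, and the other 3 groups lay between 1.42 and 1.51.

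The Ppcdc difference was -0.04 ± 0.05 under CO2-O2 and 0.16 ± 0.05 under isoflurane, and neither passed (adjusted p in limma 0.781 and 0.131). In vehicle rats isoflurane minus CO2-O2 was -0.19 ± 0.05 (adjusted p in limma 0.113). The other kept probes gave 0.10 ± 0.09 and -0.11 ± 0.10 for TBA under isoflurane, so the probes disagreed in sign. The remaining probe was not well above background on any array.

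Coasy is the enzyme that carries out the last 2 steps. Its values were 4.74, 4.56 and 4.70 in vehicle CO2-O2 rats and 4.43, 4.30 and 4.48 in TBA CO2-O2 rats. Under isoflurane they were 4.51, 4.50 and 4.61 in vehicle rats and 4.61, 4.22 and 4.36 in TBA rats. Treated rats were all lower under CO2-O2, and under isoflurane treated and control rats overlapped.

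The Coasy difference was -0.26 ± 0.10 under CO2-O2 and -0.14 ± 0.10 under isoflurane (adjusted p in limma 0.283 and 0.494). Averaged, it was -0.20 ± 0.07, with a 95% interval of -0.36 to -0.04, and it did not pass after adjustment (adjusted p in limma 0.165).

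Nudt19, the peroxisomal hydrolase that degrades coenzyme A in rodent kidney, read 0.45, 0.97 and 0.98 in vehicle CO2-O2 rats and 0.94, 0.96 and 0.96 in TBA CO2-O2 rats. Under isoflurane it read 1.02, 0.85 and 1.02 in vehicle rats and 0.91, 1.12 and 1.02 in TBA rats. Vehicle CO2-O2 rat 1 stood below the other 11, which lay between 0.85 and 1.12. The difference under CO2-O2 was 0.15 ± 0.13 with that rat and -0.03 without it, and under isoflurane it was 0.05 ± 0.13.

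**Figure D3:**
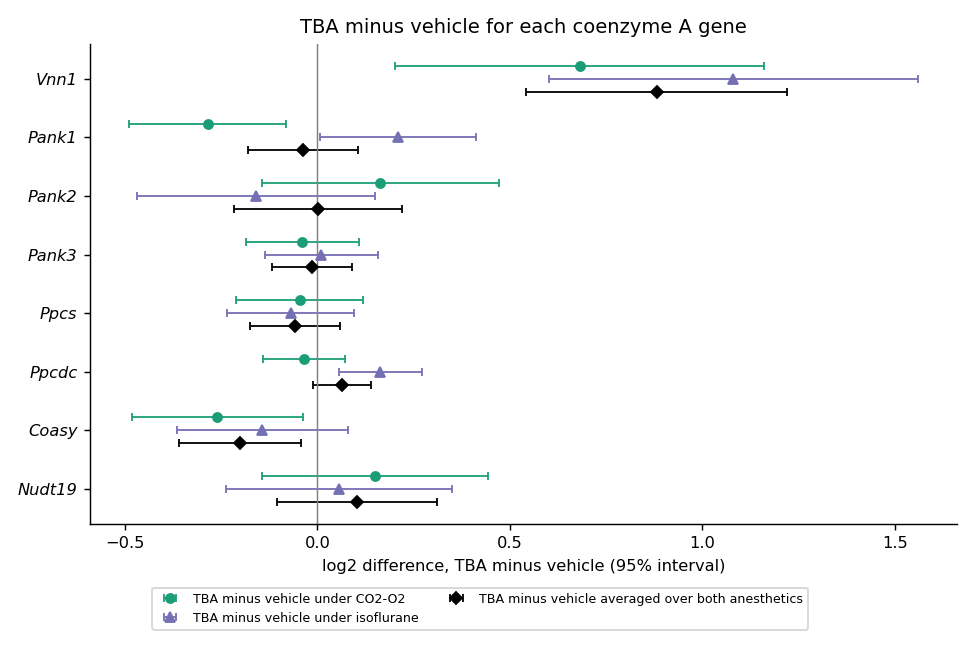
Log2 difference between TBA and vehicle rats (horizontal axis) with its 95% interval for the 8 genes (vertical axis), under CO2-O2 (circles), under isoflurane (triangles) and averaged over both (diamonds). Vnn1 lies at 0.68, 1.08 and 0.88, the averaged value of Coasy is -0.20, and those of the other 6 genes lie between -0.06 and 0.10.

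Over the 8 genes, 0 passed under CO2-O2, where 0.149% of all features did. At an unadjusted p under 0.05 in limma there were 3 of 8, beside 14.3% of features. TBA and vehicle rats did not overlap for 4 of 8 genes, beside 21% of all features. Vnn1 was higher (11.9% of features), and Pank1, Ppcdc and Coasy were lower (9.07% of features). For Ppcdc the highest TBA rat (1.463) and the lowest vehicle rat (1.465) were nearly equal. The other kept Ppcdc probes had the opposite sign under CO2-O2 (0.11 ± 0.09 and 0.02 ± 0.10).

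Under isoflurane 0 of 8 passed, where 0.395% of features did. At an unadjusted p under 0.05 in limma there were 3 of 8, beside 17.8% of features. The groups did not overlap for 4 of 8 genes, beside 24% of features: Vnn1, Pank1 and Ppcdc were higher (14.3% of features) and Pank2 was lower (9.69% of features). In the averaged comparison 2 of 8 had an unadjusted p under 0.05 in limma, beside 19% of features. The median averaged difference of the 8 genes was -0.01, beside 0.01 over all features.

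The gas used at the kill was compared within each treatment. The vehicle arrays of the 2 gases were on different slides and scan days, so gas, slide and scan day cannot be told apart within vehicle rats. The TBA isoflurane arrays shared no slide with the TBA CO2-O2 arrays. In vehicle rats 0 of the 8 genes differed between isoflurane and CO2-O2 by the adjusted p, where 0.105% of features did, and 1 had an unadjusted p under 0.05 in limma, beside 18.7% of features. The groups did not overlap for 3 of 8 genes, beside 29.2% of features. Pank3 was higher under isoflurane (0.09 ± 0.07, beside 14.9% of features higher), and Ppcdc (-0.19 ± 0.05) and Pank1 (-0.18 ± 0.09) were lower, beside 14.2% of features lower. The second Pank3 probe had the opposite sign (-0.09 ± 0.10), as did the other kept Ppcdc probes, while the other Pank1 probes were lower too (-0.43 ± 0.10 and -0.38 ± 0.09). With normexp background correction the Pank1 difference was 0.00067.

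In TBA rats 0 of 8 passed, where 0.00676% of features did, and 1 had an unadjusted p under 0.05 in limma, beside 10.8% of features. The groups did not overlap for 2 of 8 genes, beside 15.1% of features. These were Pank1 (0.31 ± 0.09) and Pank3 (0.14 ± 0.07), both higher under isoflurane on the probe used, beside 7.92% of features higher, and 0 were lower, beside 7.22%. The other Pank1 probes gave 0.13 ± 0.10 and -0.02 ± 0.09, so the Pank1 probes did not all share a sign. The second Pank3 probe gave -0.11 ± 0.10, so the Pank3 direction rests on 1 probe. These comparisons share their groups with the TBA comparisons above.

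Some genes of the pathway varied together from rat to rat. Over the 12 arrays Ppcs and Coasy correlated at 0.66 (Pearson r), and at 0.66 when each value was taken relative to its group mean. Pank1 correlated with Coasy at 0.67 and with Ppcs at 0.66 within groups, but at 0.45 and 0.14 over the 12 arrays. Vnn1 and Coasy ran in opposite directions, at -0.65 over the arrays and -0.51 within groups. Vnn1 and Pank3 correlated at 0.68 within groups and at 0.01 over the arrays. These are descriptions over 12 arrays that share scaling and slides.

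Promoter sequences of 8 of the 10 genes were in the RefSeq table of the GRCr8 assembly; Vnn1 and Ppcdc were not among them. In the 250 bases before the start site, GC content was above the median of 33469 promoters (51.2%) for all 8, from 53.6% for Pank1 to 82.8% for Pank3. The GC box, GGGCGG on either strand, was found in 6 of 8 windows and in 30.5% of all promoters. Windows are shown for the genes on the array whose start lies at the outer edge of the gene, Pank3 (chr10:20732941-20733190, plus strand, 7 GC boxes, overlapping ones included) and Nudt19 (chr1:97362970-97363219, minus strand, 1 GC box). They differ in GC content, at 82.8% and 56.8%. Capitals mark GC boxes, which read GGGCGG or CCGCCC, and the sequences run 5' to 3' on the gene's strand.
Pank3: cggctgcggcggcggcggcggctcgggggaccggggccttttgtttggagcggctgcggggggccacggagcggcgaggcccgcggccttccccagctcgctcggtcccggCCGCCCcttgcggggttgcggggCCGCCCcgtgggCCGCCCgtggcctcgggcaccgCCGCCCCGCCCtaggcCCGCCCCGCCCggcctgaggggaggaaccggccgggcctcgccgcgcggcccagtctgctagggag
Nudt19: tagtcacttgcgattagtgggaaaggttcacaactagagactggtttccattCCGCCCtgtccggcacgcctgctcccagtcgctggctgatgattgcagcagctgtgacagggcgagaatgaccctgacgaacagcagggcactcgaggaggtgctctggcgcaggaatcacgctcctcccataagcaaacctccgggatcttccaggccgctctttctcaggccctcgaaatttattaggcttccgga
The nuclear receptor half-site AGGTCA was found in 1 of 8 windows, that of Ppcs, and in 14.1% of all promoters. Its direct repeat with 1 base of any kind between the copies, the form to which PPAR-alpha and RXR bind, was found in 0 of 8 and in 0.0508% of all promoters. CACGTG was in 0 of 8 (5.59% of all), CCAAT in 2 of 8 (34.0%) and TATAAA in 0 of 8 (12.9%), all on either strand. These counts say only which letters are in these windows.

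Among the genes whose pattern over the 12 arrays was most like that of Vnn1, by Pearson r among all kept features with a symbol, were Acot2 (0.963), Eci1 (0.954), Mttp (0.953) and Fam136a (0.941). Acot2 is a mitochondrial acyl-CoA thioesterase, Eci1 an isomerase of fatty acid oxidation and Mttp a lipid transfer protein of lipoprotein assembly. Mttp was well above background on 11 of the 12 arrays.

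**Figure D4:**
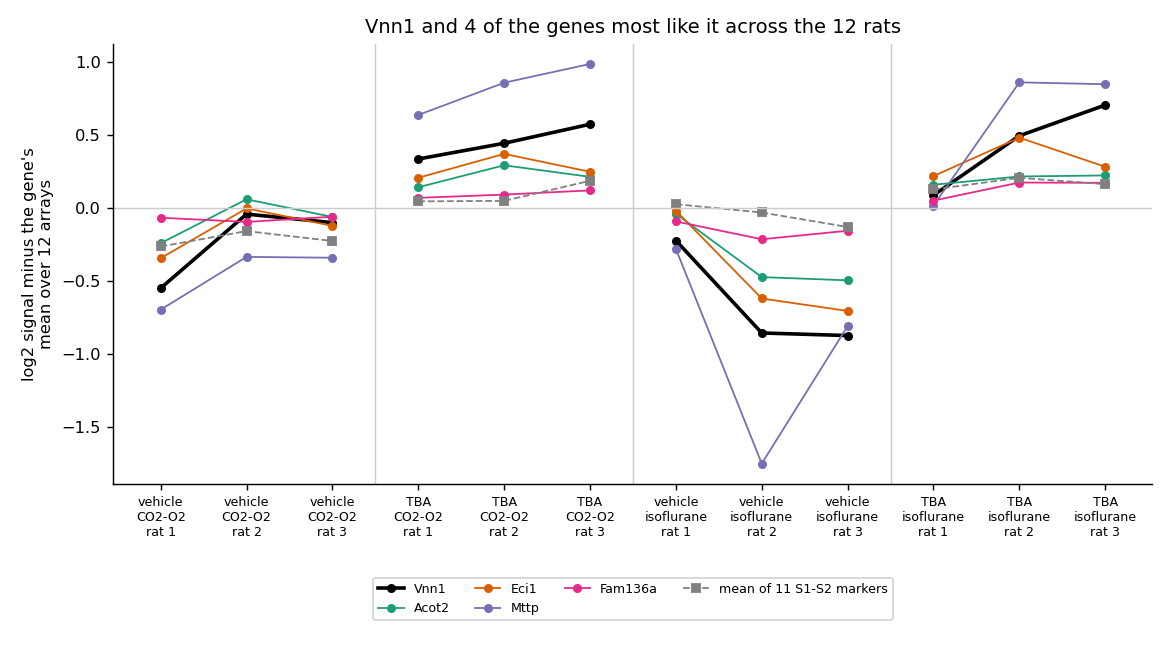
Log2 signal minus the gene's own mean over the 12 arrays (vertical axis) for Vnn1, 4 of the genes most like it and, dashed, the mean of 11 S1-S2 markers, in each rat (horizontal axis); lines only join rats of a group. Vehicle isoflurane rats 2 and 3 have the lowest Vnn1 values, 3.51 and 3.50, and Acot2 and Eci1 are also lowest in those rats.

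Vnn1 is a known target of PPAR-alpha, the receptor that responds to fatty acids, so a list of other such targets was read beside it. The 38 genes included the receptors Ppara, Pparg and Ppard and the coactivator Ppargc1a, and 37 were tested. In the averaged comparison 33 were higher and 4 lower, with a median of 0.22, beside 53.9% higher and a median of 0.01 over all features. The S1 and S2 markers had a like shift there, with 11 higher, 1 lower and a median of 0.20. The part of PPAR-alpha and of the proximal tubule shift in these values was not tested. The PPAR-alpha list also differed between the gas groups. Isoflurane minus CO2-O2 gave 7 higher and 30 lower in vehicle rats (median -0.15, beside 51.4% of features higher). In TBA rats it gave 17 higher and 20 lower (median -0.03, beside 52.4%). Within vehicle rats gas, slide and scan day coincide and cannot be told apart. The part of each in these shifts was not tested. In the averaged comparison 5 rose and 0 fell in limma, beside 1.4% of all features that rose. Acaa1b, a peroxisomal thiolase, rose by 0.86 ± 0.10 (adjusted p 0.0058 in limma), and the lipid droplet protein Plin2 rose by 0.47 ± 0.08 (0.0292). Ech1, which isomerises dienoyl-CoA, rose by 0.38 ± 0.06 (0.0259) and Eci1 by 0.60 ± 0.12 (0.0411). The count of 5 stayed within 1.5 times only without TBA CO2-O2 rat 3 (5); without any other single array it was 1 to 3, except 9 without vehicle isoflurane rat 1.

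Under isoflurane Acaa1b was the 1 gene of that list that rose (1.06 ± 0.13, adjusted p 0.0316 in limma). The coactivator Ppargc1a was the 1 gene that fell (-0.44 ± 0.07, adjusted p 0.0433 in limma), while under CO2-O2 its difference was 0.30 ± 0.07 (adjusted p 0.138). The difference between these Ppargc1a effects was -0.74 ± 0.10, with an adjusted p of 0.116 in limma. Under CO2-O2 0 of 37 passed in limma. Of all features 0.149% passed under CO2-O2 and 0.395% under isoflurane. With any 1 array left out the count of 2 under isoflurane became 0 or 1, except 7 without vehicle isoflurane rat 1.

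Acyl-CoA thioesterases release free coenzyme A from its esters. Of 14 listed, 12 were tested. In the averaged comparison 2 rose and 0 fell, beside 1.4% of all features that rose. They were Acot12, a cytosolic acetyl-CoA hydrolase (0.59 ± 0.05, adjusted p 0.0031 in limma), and Acot2 (0.42 ± 0.09, adjusted p 0.0448 in limma). The count of 2 was kept without vehicle isoflurane rat 1 and was 1 without any other single array. Acot12 also passed under CO2-O2 (0.93 ± 0.07, adjusted p 0.0031 in limma) and was 0.24 ± 0.07 under isoflurane (adjusted p 0.123 in limma), but the difference between those effects did not pass (-0.69 ± 0.10, adjusted p 0.116 in limma). Acyl-CoA synthetases load coenzyme A onto fatty acids, and 17 of 19 listed were tested. In the averaged comparison 12 were higher and 5 lower (53.9% of all features higher), with a median of 0.10 (0.01 over all features). They had 0 calls in limma, which became up to 3 over the alternatives and up to 1 with an array left out.

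A wider list held carriers of pantothenate, coenzyme A and its esters, relatives of the members, an acceptor and a transferase of the phosphopantetheine arm, and enzymes that use cysteine or cysteamine. Of 17 listed, 16 were tested. In the averaged comparison 7 were higher and 9 lower (53.9% of all features higher), with 0 calls in limma and a median of -0.04 (0.01 over all features). The ends of that list, named after their values were seen, were Vnn3, a relative of Vnn1 (0.65 ± 0.36 averaged and 1.25 ± 0.51 under CO2-O2, adjusted p in limma 0.360 and 0.309), and Cdo1, which oxidises cysteine (-0.44 ± 0.30, adjusted p in limma 0.459). Slc5a6, which brings pantothenate into the cell, differed by -0.05 ± 0.07. The mitochondrial carriers Slc25a42 and Slc25a16 differed by -0.06 ± 0.06 and 0.00 ± 0.04. The peroxisomal carrier Slc25a17 differed by -0.14 ± 0.05 (adjusted p 0.148 in limma), and Pank4, a relative of the kinases that acts as a phosphatase, by -0.10 ± 0.05 (adjusted p 0.306 in limma). Dcakd, a kinase-like relative of the last enzyme domain, differed by -0.09 ± 0.06 and Aasdhppt, which transfers the phosphopantetheine arm to proteins, by 0.00 ± 0.05.

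Markers of other cortical cell types stood as follows in the averaged comparison. Of the 11 lists other than S1 and S2, 1 marker passed in limma, where 1.88% of features did: Cldn10 of the thick ascending limb, which fell by 0.40 ± 0.08 (adjusted p 0.0417). Markers higher and lower were 6 and 3 for S3, 1 and 7 for thick ascending limb, 3 and 0 for distal convoluted tubule, and 1 and 5 for principal cells. They were 5 and 1 for intercalated cells, 6 and 0 for podocytes, 4 and 2 for endothelium, and 3 and 2 for fibroblasts. For leukocytes they were 4 and 3, for red blood cells 5 and 0, and for adipocytes 0 and 2. Of all features 53.9% were higher. Leukocyte markers summed to 68.9 to 108.3 in vehicle and 83.5 to 101.8 in TBA rats under CO2-O2, and to 56.4 to 88.7 and 62.7 to 93.2 under isoflurane. Parvalbumin (Pvalb) of the distal convoluted tubule and leptin (Lep) of adipocytes were not well above background on any array.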

How the data were processed

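Cy3-labelled cRNA from the renal cortex was hybridised to one-colour Agilent arrays, per the labels. The deposited scanner output gives a processed intensity per spot, made with Agilent Feature Extraction 10.7 per the submitters' processing notes; background had been subtracted and no scaling between arrays applied, per the file headers. The submitters also deposited a table, used here only as an alternative. Its values equal a linear ratio of that intensity to the 75th percentile, which was found by comparison and is not stated by the authors. Column medians of that table were 0.101 to 0.107, genes were not centred, direction has no meaning for a single colour, and its columns paired best (r = 0.9999) with scanner files of a different replicate in the same group.

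Control spots and spots marked as outliers were dropped. A probe was used if it was well above background on every array of some group (40216 probes). Names came from matching accessions, versions removed, to RefSeq's GRCr8 table, which named 27460 probes once, 0 several times and left 34197 unnamed; the probe with the highest mean stood for a gene. No spot was saturated (0), and the number of arrays limits the precision.

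Log2 of the processed intensity less the 75th percentile was fitted with a mean for each group in limma 3.58.1 under R 4.3.3, and the procedure was tested on simulated arrays. Residual degrees of freedom were 8 and prior ones 1.89. The genes and lists were chosen with earlier results of these data known. All members were named, plus a preset group of transport genes and up to 4 called genes per other list by smallest adjusted p, and the 5 genes most like Vnn1, of which 1 is not reported here. Acaa1b and Ppargc1a under isoflurane and the cell type markers were named after their values were seen. Alternatives were normexp (offset 50), scaling by quantiles or by the median, no filter, the submitters' table, the mean of probes or each probe, slide as a random or fixed block, a replicate block, only the groups compared, a trend with robust spread, and each array left out. Scan day and slide 1 alone were added after seeing the data.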

Additional observations from a re-analysis of the deposited data

Results flagged for a closer look

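Pank1 and Ppcdc were flagged because all treated rats lay below the mean of their controls under CO2-O2 and above it under isoflurane. The share of all features with this pattern was not counted. For Ppcdc under CO2-O2 the highest treated rat (1.463) and the lowest control (1.465) were nearly equal. An unadjusted p under 0.05 in the interaction test in limma was found for 12.1% of features. For Pank1 the TBA effect under isoflurane minus that under CO2-O2 was 0.50 ± 0.13 (log2), with an adjusted p of 0.244 in limma, and it ran from 0.22 (normexp) to 0.56 over the alternatives and from 0.40 to 0.56 with an array left out. For Ppcdc it was 0.20 ± 0.07, with an adjusted p of 0.318 in limma, and its other kept probes gave -0.01 ± 0.12 and -0.13 ± 0.15. Neither test passed the threshold. The slides differ between these groups. The same difference of effects had a median of 0.47 over 5 fibroblast markers (5 of 5 above 0) and 0.53 over 9 S3 markers (8 of 9). Both lists were picked after their values were seen, and the medians of other marker lists lay on both sides of 0. The part of slides and cell types in either result was not tested.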

How the results depend on the processing

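The rise of Vnn1 in the averaged comparison kept its direction in all 11 alternatives, at 0.83 to 0.94, and passed in 8. Over all 11 the adjusted p in limma ran from 0.0136 to 0.0892. The number of genes called there was 1 and became 0 with no filter on dim probes (adjusted p of Vnn1 0.0780), with the replicate block (0.0570) and with scan day as a term (0.0892), and ran from 0 to 1 with an array left out. Under isoflurane Vnn1 passed, making 1 call, with normexp (1.21, adjusted p 0.0234 in limma), median scaling (1.12, 0.0467) and a trend with robust spread (1.08, 0.0354). Replicate numbers, here those of the scanner files, showed no sign of pairing the rats. Rats with the same number correlated at -0.133 to 0.133 in their deviations from group means. Those of different numbers and groups correlated at -0.191 to 0.222, and 5 of 12 rats correlated best with their own number. With the replicate block the features called in the averaged comparison went from 558 to 167.

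Of 1152 recomputed differences of the 8 genes, 1090 kept sign and call, 11 lost a call, 3 gained one and 48 changed sign, 27 of these with an array left out; the cause was not tested. With normexp the sign changed for TBA minus vehicle in Pank3 under CO2-O2 (0.0035) and isoflurane (-0.11), Nudt19 under isoflurane (-0.15) and Pank2 averaged (-0.054), for the interaction of Pank3 (-0.12), and for isoflurane minus CO2-O2 in Pank1 in vehicle rats (0.00067) and in Vnn1 (0.073) and Nudt19 (-0.055) in TBA rats. With the mean of probes it changed for Ppcdc under CO2-O2 (0.032), Pank3 under isoflurane (-0.048) and Pank3 between gases in vehicle rats (-0.0043). With median scaling it changed for the interaction of Ppcs (0.041) and Coasy between gases in TBA rats (0.0036). With slide or with scan day as a fixed term Ppcs under CO2-O2 became 0.018 and Ppcs between gases in vehicle rats 0.0022. With scan day Pank1 averaged became 0.00078, and between gases in TBA rats Vnn1 became 0.039, Ppcdc -0.0022 and Coasy 0.032. Slide as a fixed term gave no value where TBA isoflurane arrays entered.

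With an array left out, signs changed within these ranges. TBA minus vehicle ran from -0.026 to 0.24 for Nudt19 under CO2-O2, -0.0017 to 0.11 for Nudt19 and -0.047 to 0.049 for Pank3 under isoflurane, and averaged from -0.047 to 0.068 for Pank2 and -0.043 to 0.0049 for Pank3. The interaction ran from -0.0076 to 0.089 for Pank3, -0.075 to 0.033 for Ppcs and -0.19 to 0.081 for Nudt19. Isoflurane minus CO2-O2 ran from -0.015 to 0.25 for Nudt19 in vehicle rats, and in TBA rats from -0.16 to 0.15 for Vnn1, -0.0022 to 0.020 for Ppcdc and -0.11 to 0.080 for Coasy.

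The counts of features called ran over alternatives from 3 to 108 under CO2-O2 (44), 0 to 1334 under isoflurane (117), 63 to 1091 averaged (558), 0 to 43 for the interaction (0), 0 to 868 between gases in vehicle rats (31) and 0 to 14 in TBA rats (2). Calls among PPAR-alpha targets averaged ran from 1 to 7 (5), among thioesterases from 1 to 2 (2) and among synthetases from 0 to 3 (0).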
